A study of Mus musculus with 6 samples.

Results

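The 10 genes described here encode intermediate filament proteins other than keratins: vimentin (Vim), desmin (Des), glial fibrillary acidic protein (Gfap) and peripherin (Prph) of type III, alpha-internexin (Ina), the light neurofilament chain (Nefl) and nestin (Nes) of type IV, and the lamins of the nucleus, Lmna, Lmnb1 and Lmnb2, of type V. They were chosen by name. For each gene the value was taken from the probe set, the group of array probes that reports 1 transcript, with exactly 1 gene symbol and the highest mean over the 6 arrays. All 10 genes were found among the 19938 genes measured. They had 11 such probe sets, and Ina was the 1 gene with 2.

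Intermediate filaments are rope-like polymers that give cells and nuclei mechanical strength. The cytoplasmic proteins are expressed by cell type: vimentin in mesenchymal cells and many cultured cells, desmin in muscle, glial fibrillary acidic protein in astrocytes, peripherin in peripheral neurons, nestin in neural progenitors, and alpha-internexin and the neurofilament chains in neurons. Nestin polymerises together with a partner such as vimentin. The lamins line the inner nuclear membrane, where they anchor chromatin and membrane proteins; B-type lamins are present in nearly all cells, and A-type lamins, both from Lmna, are typically low in embryonic stem cells and rise as cells differentiate.

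RNA came from mouse embryonic stem (ES) cells, 3 samples labelled WT (1, 2 and 3, genotype given as control) and 3 labelled Satb1-/- (clones 1-1, 1-2 and 2-1, Satb1 knockout). Satb1 encodes a DNA-binding protein that organises chromatin. In all the cells, per the series' design, the Oct4 locus carries a HygroTK selection reporter, and all were grown for 3 days with LIF, serum and hygromycin on irradiated feeder cells, most of which were left to settle out before RNA extraction. The labels name no strain or sex, do not state whether the WT samples are separate cultures or lines, and do not explain the first clone number; p-values here therefore reflect only the scatter among these samples, which may be partly technical. The samples carry no shared replicate numbers.

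Satb1 was lower in the Satb1-/- samples (4.38, 4.47 and 4.57 on the log2 scale, against 5.12, 4.99 and 5.31), a difference of -0.67 (limma adjusted p = 0.0220, missed without WT 1 or any one Satb1-/- array). No source used here tells whether its probes fall inside the deletion. Pearson's r over all probe sets was 0.975 to 0.986 within WT, 0.989 to 0.991 within Satb1-/- and 0.981 to 0.987 between them. WT 1 stood apart from the other WT arrays on the first principal component (-26.7, against -10.6 and -3.69) and WT 3 from all other arrays on the second (-29.3, against 0.508 to 13.1), and these arrays had the lowest array weights (0.46 and 0.45). Results that rest on either are also given without it. Genes of ES cells were high on every array: the mean log2 level of 14 ES cell markers was 8.90 to 9.16 in WT and 9.19 to 9.20 in Satb1-/-, with a median difference of 0.08 and 8 of 14 above 0. Nanog, Esrrb and Klf4 rose among them (1.09, 0.56 and 0.97) and 0 fell. Pou5f1 (-0.39), Dppa4 (-0.39), Lin28a (-0.34) and Tdgf1 (-0.06) read lower in Satb1-/- without overlap and were not called. Sox2 (0.30) read higher without overlap and was not called either. Esrrb lost its call without WT 1 or any one Satb1-/- array, and Klf4 without any one array but WT 3.

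Of the 10 genes, 2 fell in Satb1-/- cells, Prph and Nes, and 0 rose (limma, adjusted p under 0.05 over all genes; 3 had an unadjusted p under 0.05, the third being Des). Over all 19938 genes, 0.476% were called lower, 0.923% higher and 1.40% either way, and 10.5% had an unadjusted p under 0.05. The all-gene counts were 184 higher and 95 lower, 159 and 47 with each array shifted to the same median, and 242 and 183 after a second quantile normalization. The groups did not overlap for 3 of the 10 genes, Prph, Nes and Des, all lower in Satb1-/-, against 6.97% of all genes lower without overlap. The median difference of the 10 genes, Satb1-/- minus WT, was -0.04 on the log2 scale, and that of all genes was -0.00. Values are log2 expression values, so that a difference of 1 is a doubling; hybridisation background compresses differences of dim genes. In RNA from whole cultures, fewer cells that express a gene and less RNA per cell cannot be told apart.

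**Figure D1:**
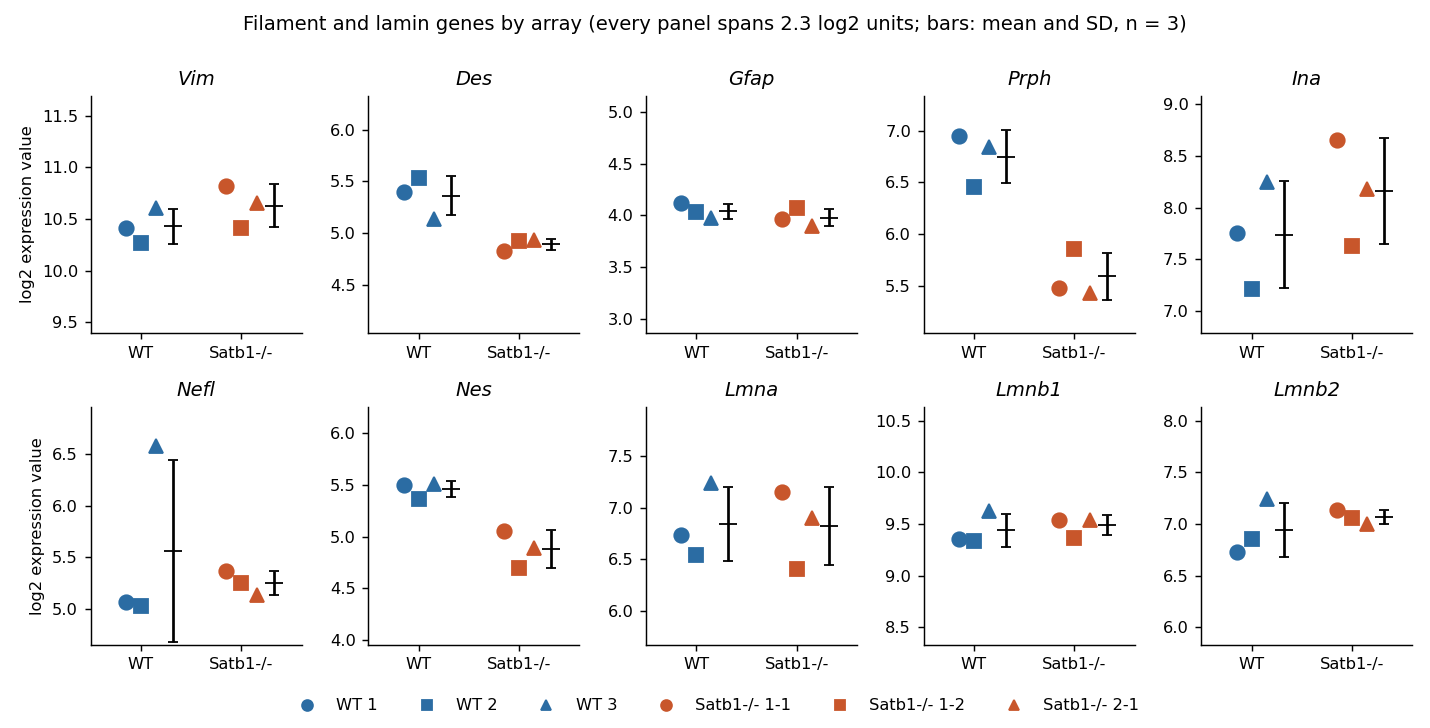
Log2 expression value of each of the 10 genes in each array, WT in blue and Satb1-/- in orange, with the mean and SD (n = 3) beside the points. Each panel spans the same number of log2 units. Prph, Nes and Des are lower in all 3 Satb1-/- arrays than in any WT array, and Nefl has 1 high WT value (6.58 in WT 3).

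Prph, which encodes the filament protein of peripheral neurons, had the largest difference of the 10. It read 6.95, 6.46 and 6.84 in WT 1, 2 and 3 and 5.48, 5.86 and 5.43 in Satb1-/- 1-1, 1-2 and 2-1. The lowest WT value lay well above the highest Satb1-/- value. The means were 6.75 ± 0.26 and 5.59 ± 0.23 (SD, n = 3 each), a difference of -1.16 (95% interval -1.51 to -0.81, limma adjusted p = 0.00493), or a 2.23-fold lower level (95% interval 1.75 to 2.84). Of all genes, 0.0903% had a difference as low or lower. Prph passed the threshold without any one of the 6 arrays (differences -1.30 to -1.06) and under all 8 other settings tried.

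The stretches before the transcription starts of both genes that fell, Prph and Nes, are printed here with that of Vim, a bright gene of the same filament type as Prph for which no change was called. They are the 250 bases upstream of a RefSeq start in GRCm38.p6, read 5′ to 3′ on the gene's strand. Capitals mark matches, on either strand, to 3 short motifs: the TATA box with the letters TATAAA, the CCAAT box, searched by the 5 letters of its name, and the GC box with the letters GGGCGG. The motifs do not overlap each other.
Prph, chr15:99054924-99055173, + strand: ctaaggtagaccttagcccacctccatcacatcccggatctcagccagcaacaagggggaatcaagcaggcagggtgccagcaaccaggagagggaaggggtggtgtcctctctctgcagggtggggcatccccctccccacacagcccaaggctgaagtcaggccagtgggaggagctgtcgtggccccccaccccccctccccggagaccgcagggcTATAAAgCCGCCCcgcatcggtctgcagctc
Nes, chr3:87970843-87971092, + strand: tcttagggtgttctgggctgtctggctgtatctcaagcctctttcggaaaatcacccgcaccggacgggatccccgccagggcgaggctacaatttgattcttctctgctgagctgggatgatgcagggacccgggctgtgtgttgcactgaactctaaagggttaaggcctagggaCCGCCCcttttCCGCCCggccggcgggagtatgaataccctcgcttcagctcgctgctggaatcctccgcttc
Vim, chr2:13574061-13574310, + strand: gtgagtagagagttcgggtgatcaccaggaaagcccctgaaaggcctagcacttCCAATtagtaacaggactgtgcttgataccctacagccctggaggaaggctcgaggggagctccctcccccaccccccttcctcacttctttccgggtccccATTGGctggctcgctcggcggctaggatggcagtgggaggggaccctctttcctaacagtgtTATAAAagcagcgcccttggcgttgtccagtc

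The TATA box letters occurred in the Prph and Vim windows and not in that of Nes. Over all 32851 RefSeq promoters in windows of this length, 12.4% held the TATA box letters, 33.8% those of the CCAAT box and 32.7% those of the GC box. The Nes window held 2 matches to the GC box, the Prph window 1 and the Vim window 0, while the Vim window was the one of these 3 with the CCAAT box, at 2 places. The Prph and Vim windows, with a TATA box match each, belong to a gene that fell and to one that was not called. For 8 of the 10 genes the RefSeq table held a promoter, 10 in all, since Lmna and Lmnb2 had 2 each; of these 10 windows 2 held the TATA box letters, 2 the CCAAT box and 6 the GC box. Guanine and cytosine made up 65.2% of the Prph window, 58.8% of the Nes window, 58.4% of the Vim window and, as the median, 52.4% of all windows. The printed Prph window lies inside the gene's RefSeq span, which starts at 99053579 with another transcript. No source used here places the array's probes within these genes.

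Vim, which encodes the filament protein of mesenchymal cells, was bright on all arrays. It read 10.41, 10.27 and 10.61 in WT and 10.82, 10.41 and 10.66 in Satb1-/-. The groups overlapped, with WT 3 above Satb1-/- 1-2. The difference was 0.20 (95% interval -0.10 to 0.50, limma adjusted p = 0.725), whose interval lies far above the difference of Prph.

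Des, the muscle gene, was dim, near the middle of all genes (percentile 51.4). It read 5.40, 5.53 and 5.14 in WT and 4.83, 4.92 and 4.93 in Satb1-/-, so every Satb1-/- value was below every WT value. Its difference of -0.46 (95% interval -0.73 to -0.20) missed the threshold with all arrays (limma adjusted p = 0.113). It passed without WT 3 (-0.57, adjusted p = 0.0234) and with array weights (-0.54, adjusted p = 0.0176), and over all alternatives the adjusted p ran from 0.0176 to 0.390. Of 13 other muscle markers none was called, 3 had a difference above 0 and the median was -0.22, or -0.29 without WT 3 and -0.12 without WT 1. In the list Cnn1 (-0.54), Tnnt2 (-0.41), Myh7 (-0.32) and Myod1 (-0.22) read lower in Satb1-/- without overlap. The mean level of that list was 5.27 to 5.36 in WT and 5.07 to 5.19 in Satb1-/-, with the muscle regulators Myod1 and Myog among the dim members; its part in the Des values was not tested.

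Gfap, the astrocyte gene, was dim (percentile 28.4 of all genes). Its values lay between 3.98 and 4.12 in WT and between 3.90 and 4.07 in Satb1-/-, a difference of -0.06 (95% interval -0.29 to 0.17, limma adjusted p = 0.937). At this level the array could not show whether the gene is expressed.

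Among the type IV genes only Nes was called. It read 5.50, 5.36 and 5.51 in WT and 5.05, 4.70 and 4.89 in Satb1-/-. The groups did not overlap, and the gap between the nearest values was small. The means were 5.46 ± 0.08 and 4.88 ± 0.18 (SD, n = 3 each), a difference of -0.58 (95% interval -0.84 to -0.31, limma adjusted p = 0.0466), or 1.49-fold (95% interval 1.24 to 1.79). The call sat at the edge of the threshold: it was lost without any one of the 6 arrays (differences -0.66 to -0.49, adjusted p 0.0540 to 0.218), and in 3 of 8 other settings (adjusted p 0.0297 to 0.102 over the 8).

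Ina, the alpha-internexin gene, was bright and varied widely within both groups. It read 7.76, 7.21 and 8.25 in WT and 8.66, 7.63 and 8.18 in Satb1-/-, so that the groups overlapped over most of their range. The difference was 0.42 (95% interval -0.20 to 1.04, limma adjusted p = 0.715). The second probe set of Ina followed the same order of arrays within WT, at 7.01, 6.39 and 7.89, and read 7.80, 7.08 and 7.74 in Satb1-/-; its difference was 0.44.

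Nefl, the light neurofilament gene, read 5.07, 5.03 and 6.58 in WT and 5.37, 5.25 and 5.13 in Satb1-/-. WT 3 alone was high, and the other 5 values lay close together. The difference of -0.31 (95% interval -1.05 to 0.43, limma adjusted p = 0.868) rested on that array and was 0.20 without it. The SD of Nefl in WT (0.88) was larger than that of 99.9% of genes or equal to it. Nefh, the heavy chain, which is no member, was likewise highest in WT 3 (7.80, against 7.30 and 6.55), while Nefm, the medium chain, was dim on all arrays (3.46 to 4.12).

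**Figure D2:**
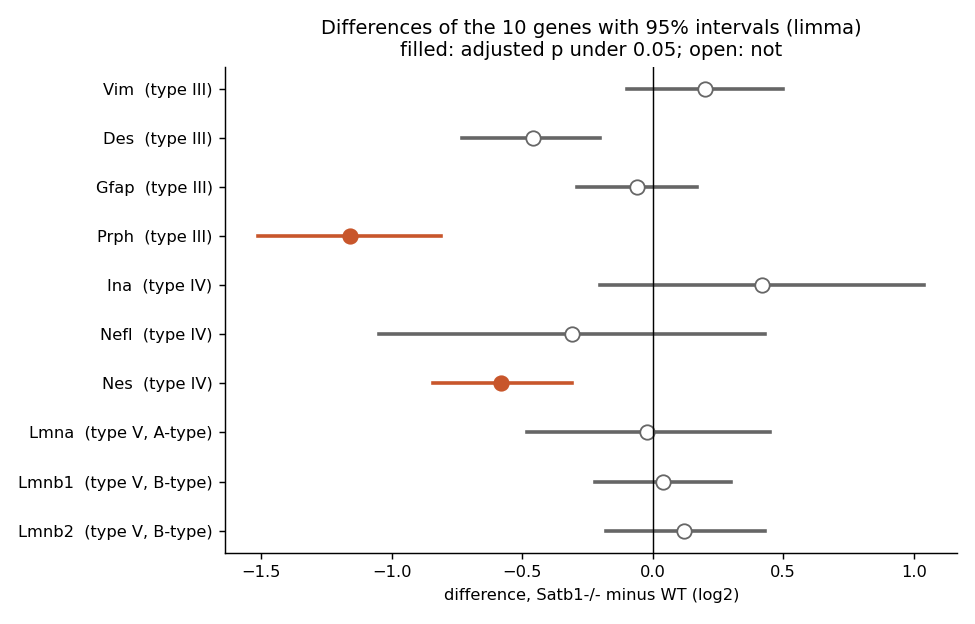
Difference between Satb1-/- and WT of each gene on the log2 scale (points) with its 95% interval from limma (bars), ordered by filament type. Prph (-1.16) and Nes (-0.58) are called; the interval of Des also lies below 0 but its adjusted p is 0.113, and the intervals of the other 7 genes include 0.

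For the lamins no difference was called. Lmna, which encodes lamins A and C, read 6.73, 6.54 and 7.24 in WT and 7.15, 6.41 and 6.90 in Satb1-/-. The ranges of the groups were nearly the same. The difference was -0.02 (95% interval -0.48 to 0.45, limma adjusted p = 0.994).

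Lmnb1, which encodes lamin B1, was bright and even, at 9.36, 9.34 and 9.63 in WT and 9.54, 9.37 and 9.54 in Satb1-/-. Its difference was 0.04 (95% interval -0.22 to 0.30, limma adjusted p = 0.960). Lmnb2, which encodes lamin B2, read 6.73, 6.86 and 7.24 in WT and 7.14, 7.06 and 7.00 in Satb1-/-. Its Satb1-/- values lay within the WT range, with a difference of 0.12 (95% interval -0.18 to 0.43, limma adjusted p = 0.871). The intervals of the B-type lamins thus excluded changes of 0.5 log2 units, and that of Lmna reached nearly that far in either direction.

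Whether members changed unequally was tested within arrays for 3 pairs, by the log2 value of one gene minus that of the other; the level of such a difference depends on the probes and only its change between groups was read. Nes minus Vim was -4.91, -4.91 and -5.10 in WT and -5.77, -5.71 and -5.78 in Satb1-/-, so all 3 Satb1-/- arrays lay below all WT arrays. The change was -0.78 (exact permutation p = 0.10, two-sided, the smallest that 3 against 3 arrays can give; 0.300 adjusted over the 3 pairs). Prph minus Nefl changed by -0.85 (exact permutation p = 0.300, adjusted 0.450), by -1.31 without WT 3, which carried the high Nefl value, and by -0.50 without WT 1. Lmna minus Lmnb1 changed by -0.06 (exact permutation p = 0.700, adjusted 0.700), with WT values from -2.80 to -2.39 and Satb1-/- values from -2.96 to -2.39.

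Within the groups, several members took the same order of arrays. WT 3 was the highest WT array for 7 of the 10 genes (33.8% of all genes), WT 2 the lowest for 7 (29.3%), Satb1-/- 1-1 the highest Satb1-/- array for 7 (38.6%) and Satb1-/- 1-2 the lowest for 5 (36.5%). Vim, Ina and Lmna shared all 4 of these places, as did Nes and Lmnb1. For Nes and Lmnb1 some of the places were near ties. Nes read 5.51 in WT 3 and 5.50 in WT 1. Lmnb1 read 9.54 in both Satb1-/- 1-1 and 2-1, and 9.36 and 9.34 in WT 1 and WT 2. Relative to its mean over the 6 arrays, Lmna was 0.41 higher in WT 3 and 0.32 higher in Satb1-/- 1-1, with -0.29 in WT 2 and -0.42 in Satb1-/- 1-2. These deviations exceed its difference between the groups. This order was seen after the values were known, the members share the same 6 arrays, and no test was made of it.

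Feeder fibroblasts are mesenchymal and express vimentin, so the level of 16 feeder markers was set beside Vim. The list's mean log2 level was 6.43, 6.64 and 6.21 in WT and 6.80, 6.58 and 6.72 in Satb1-/-; none of the 16 was called, 14 had a difference above 0, and the median difference was 0.24, or 0.14 without WT 3 and 0.17 without WT 1. The differences of the 16 ran from -0.09 to 0.62, the highest being that of Thy1 (limma adjusted p = 0.262). The collagen genes Col1a1 (7.81 to 8.19 over all arrays) and Col3a1 (5.95 to 6.26) were present above the dim end of the arrays, so some feeder RNA cannot be told apart from expression by the ES cells. Within WT the feeder markers were lowest in WT 3 and highest in WT 2, the opposite of Vim, Ina and Lmna. Within Satb1-/- their mean level was lowest in 1-2 and highest in 1-1, in the same order as those genes. The single markers were split there. Col1a1 (7.99, 8.19 and 8.04 in 1-1, 1-2 and 2-1) and Fn1 (10.28, 10.41 and 10.37) were highest in 1-2. Thy1 (7.41, 6.93 and 7.55) and Pdgfra (7.10, 6.40 and 6.86) were lowest in 1-2.

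**Figure D3:**
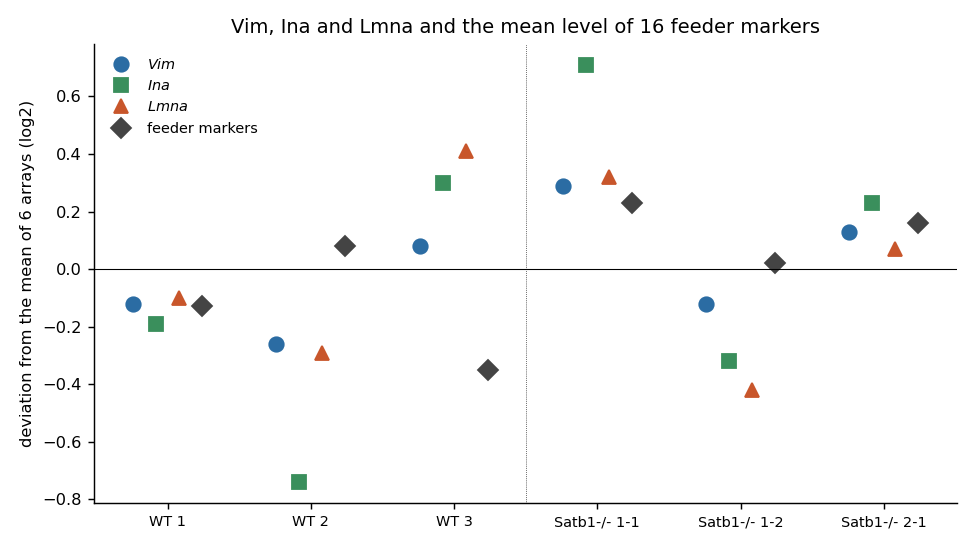
Deviation of Vim, Ina and Lmna from their means over the 6 arrays, and that of the mean level of 16 feeder fibroblast markers, for each array on the log2 scale. The 3 genes are lowest in WT 2 and highest in WT 3 among WT arrays, where the feeder markers take the opposite order (0.08 and -0.35); among Satb1-/- arrays all 4 are highest in 1-1 and lowest in 1-2.

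The neural genes that usually accompany Nes, Ina and Prph were compared next. Of 17 neural markers 0 were called (1 higher without WT 3, Stmn2), with 10 of the 17 above 0, a median difference of 0.01 and a mean level of at most 5.12 in WT and 5.14 in Satb1-/-. Sox1, an early neural factor, read 6.01 to 6.16 on all arrays (difference -0.05). Pax6, dim at 3.96 to 4.54, read lower in Satb1-/- without overlap and was not called (-0.25, limma adjusted p = 0.569). Ncam1 (0.37) and Mapt (0.32), a neural adhesion molecule gene and the tau gene, read higher in Satb1-/- without overlap and were not called (limma adjusted p = 0.126 and 0.309). Of 9 peripheral neuron markers Gap43, which encodes a growth cone protein, fell by 0.65 (limma adjusted p = 0.0291; missed without WT 1, WT 2, Satb1-/- 1-2 or 2-1), and 0 rose (1, Uchl1, without WT 3). The defining genes of peripheral neurons in that list were dim on all arrays, with Pou4f1 at 3.47 to 3.56 and Isl1 at 3.64 to 3.92. The mean level of the list was 4.64 to 4.70 in WT and 4.61 to 4.64 in Satb1-/-. In that list 3 of 9 had a difference above 0 and the median was -0.05. With all arrays Uchl1 differed by 0.42 (limma adjusted p = 0.381). Ret (0.14) read higher and Scn9a (-0.25) lower without overlap. Of 8 astroglia markers 0 were called (median 0.09), as were 0 of 12 extraembryonic endoderm markers (median -0.01). Among the astroglia markers Aldh1l1 (0.23) read higher and Slc1a3 (-0.32) lower without overlap. Among the endoderm markers Lamb1 read higher without overlap (0.52, limma adjusted p = 0.0738). Of 11 genes of the epithelial to mesenchymal transition 0 were called (median -0.00). That list holds epithelial and mesenchymal genes, so its median cannot show a shift between them. In it Cdh1 (-0.47, limma adjusted p = 0.101) read lower and Snai2 (0.24, limma adjusted p = 0.506) higher without overlap. Of 9 trophectoderm markers 0 were called and 4 had a difference above 0. Their median was -0.16, or 0.01 without WT 3 and -0.26 without WT 1. Eomes (0.55), Tead4 (0.43) and Tfap2c (0.33) read higher without overlap. Plac1 (-1.08) read lower without overlap and was called lower without WT 3.

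Other cytoplasmic filament genes gave 0 calls outside the keratins. The 6 further non-keratin genes were Nefm, Nefh, synemin, syncoilin and the lens filament genes Bfsp1 and Bfsp2. Of them 0 were called and 1 had a difference above 0. Their median was -0.19, or -0.09 without WT 1 and -0.26 without WT 3. The largest was that of Nefh, -0.54 (limma adjusted p = 0.497). The keratins of simple epithelia, which form the other filament network of early embryonic cells, fell much further, and 3 of 5 were called lower. Krt8 differed by -2.72, Krt18 by -2.48 and Krt19 by -1.74 (limma adjusted p = 0.00209, 0.00514 and 0.00322). Without WT 3 these differences were -2.29, -1.97 and -1.51, and all 3 genes were still called. Krt7 read lower without overlap (-1.57, limma adjusted p = 0.0716) and was called without WT 3 (-1.03) or without WT 1. In WT 3, where Nefl and Lmna were high, Krt8 was also highest (10.09, against 8.80 and 8.80). Among 8 linker genes, which tie filaments to junctions and to other parts of the cytoskeleton, 0 were called; plectin (Plec) differed by 0.12 and desmoplakin (Dsp) by -0.39 (limma adjusted p = 0.878 and 0.367). Of 9 genes of filament chaperones and turnover 0 were called (median 0.13, or 0.07 without WT 1), or 1 without WT 3, the small heat shock protein gene Hspb1, whose difference was 0.43 with all arrays and 0.74 without WT 3. Of 6 kinases that phosphorylate filaments and lamins, 0 were called (median 0.00).

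Partners of the lamins gave 1 call. Of 13 genes of the inner nuclear membrane and lamina, 0 were called and the median was -0.00; the lamin B receptor gene Lbr differed by 0.10 and the emerin gene Emd by -0.00 (limma adjusted p = 0.925 and 1.00). Tor1aip2 of the same list read higher in Satb1-/- without overlap and was not called (0.40, limma adjusted p = 0.162). Of 7 genes of the LINC complex, which couples the lamina to the cytoskeleton, 0 were called. Sun1 of that complex read 7.72, 7.98 and 7.90 in Satb1-/- against 7.26, 7.64 and 7.46 in WT, without overlap, but missed the threshold (0.42, limma adjusted p = 0.197). Syne1 (0.19) read higher and Syne3 (-0.19) lower without overlap. Of 8 genes of lamin processing and the isoprenoid pathway 1 was called, Fnta, which encodes the alpha subunit that farnesyltransferase shares with a related prenyl transferase. Fnta read 8.62, 8.68 and 8.81 in WT and 8.04, 7.80 and 7.94 in Satb1-/-. The groups did not overlap, and the difference was -0.78 (limma adjusted p = 0.00668), though the threshold was missed without Satb1-/- 1-2 or 2-1 (adjusted p = 0.0552 and 0.0531). Fnta lies on chromosome 8, whose 570 genes at or above the median level had a median difference of -0.29; Fnta had the 13th lowest of them. The beta subunit gene Fntb differed by 0.10 and the protease gene Zmpste24, which completes lamin A, by 0.08 (limma adjusted p = 0.935 and 0.960). Icmt read higher without overlap and was not called (0.25, limma adjusted p = 0.442).

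**Figure D4:**
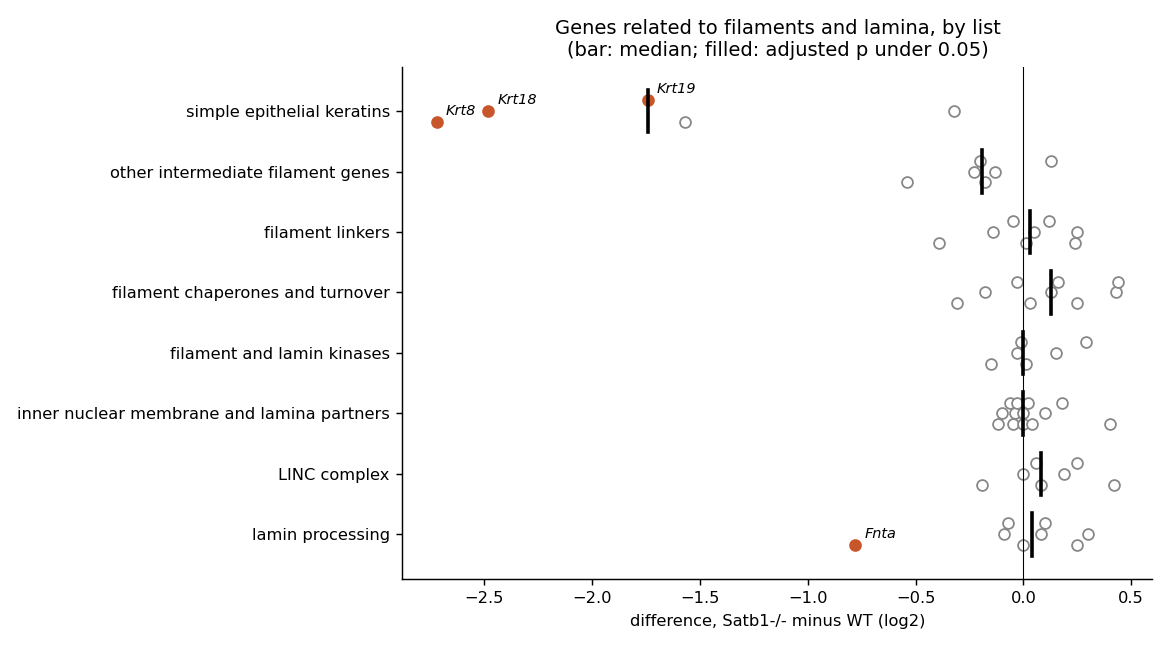
Difference between Satb1-/- and WT on the log2 scale for each measured gene of 8 lists related to filaments and the lamina; points are genes, bars are list medians, and filled points have an adjusted p under 0.05. Calls are limited to 3 keratin genes and Fnta, and the other list medians lie between -0.19 and 0.13.

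Genes of chromosome 8 read lower in Satb1-/- cells (median difference -0.29 for those at or above the median level). The 10 tested genes on each side of each member were therefore examined (GRCm38.p6 gene order). Around Prph, on chromosome 15, the 20 neighbours had a median difference of -0.10 (range -0.43 to 0.13), and none was called or as low as Prph. Around Nes, on chromosome 3, the median was -0.05 (range -0.42 to 0.21), again with none called or as low. Around Des, on chromosome 1, it was 0.06 (range -0.35 to 0.63), with 1 neighbour called higher. For the other 7 members the medians lay between -0.05 and 0.08, and no neighbour was called. None of the 10 genes lies on chromosome 8, and the medians of the chromosomes that hold them were between -0.02 and 0.01.

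**Figure D5:**
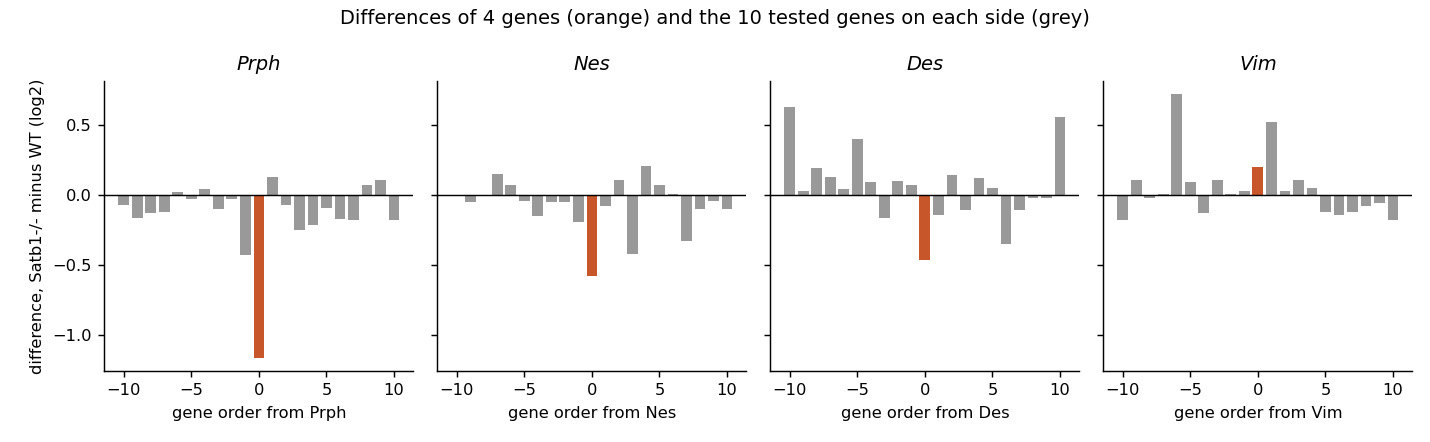
Difference between Satb1-/- and WT on the log2 scale for Prph, Nes, Des and Vim (orange) and for the 10 tested genes on each side in chromosome order (grey). The neighbours of Prph lie between -0.43 and 0.13, away from its own -1.16.

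For 4 members the 3 genes with the most similar profile over the 6 arrays were found among 9968 other genes at or above the median level, by the root mean square distance between profiles centred on their means. Nearest to Prph were Tbc1d9 (distance 0.18 log2 units), Sema6a (0.22) and Slc5a5 (0.24), where the median distance was 0.64. Nearest to Nes were Fat1 (0.02), Cnn1 (0.05) and Orc6 (0.06), with a median of 0.35. Tbc1d9, Slc5a5, Fat1 and Orc6 lie on the lowered chromosome 8. Fat1 read 8.41, 8.22 and 8.41 in WT and 7.97, 7.58 and 7.77 in Satb1-/-, a difference of -0.57 (limma adjusted p = 0.0593). Nearest to Vim were Akap11 (0.03), Rnf113a2 (0.04) and B230354K17Rik (0.04), with a median of 0.22, and nearest to Lmna were Rps19bp1 (0.07), Znhit3 (0.07) and Gtf2e1 (0.08), with a median of 0.31. With 6 arrays and so many genes, close profiles are found for any gene, so these are descriptions.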

How the data were processed

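Total RNA of 6 samples was labelled with biotin and hybridised to 1-colour arrays. The authors deposited log2 expression values for 35557 probe sets made with RMA (background correction, normalization between arrays, probe summary), per the submitters' processing notes; no source used here gives its version, its settings or the array's genome build. Arrays have no read depth, so their number limits precision. The platform annotation gave 1 symbol for 21789 probe sets, several for 1621 and none for 12147; only the first were used, and the brightest per gene was kept. Satb1-/- and WT were compared with limma 3.58.1 (R 4.3.3; lmFit, eBayes, no covariate, no filter) over 19938 genes, with Benjamini-Hochberg adjustment and a threshold of 0.05; the step was tested on simulated data. Members and lists (17, with 171 of 183 entries measured) were chosen with earlier results of these data known. The text names all members, Satb1, called list genes (up to 4 a list) and the 3 nearest profiles of Prph, Nes, Vim and Lmna; other list genes were named after their values were seen. Promoters are from RefSeq (GRCm38.p6).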

Additional observations from a re-analysis of the deposited data

How the results depend on the processing

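The direction of all 10 differences was tracked under 8 other settings and without each array in turn. Prph stayed called in all of them, and 0 members were called higher in any. Prph, Nes, Des and Gfap kept a negative and Vim, Ina and Lmnb2 a positive difference throughout, while those of Nefl, Lmna and Lmnb1, which were not called, changed sign in some. Gfap was not tested where only genes at or above the median level were kept. The count of members called lower (2) was 1 with each array shifted to the same median, with Satb1-/- 1-1 and 1-2 averaged to 1 sample and with every probe set tested, and 1 to 2 without one array. Nes was the gene lost each time, also without WT 3, where Des was called in its place and the count stayed at 2. With array weights the count was 3, through Des. The counts over all genes (184 higher, 95 lower) moved to 47 lower with the shift of medians, 183 lower with the second quantile normalization, 373 and 235 with array weights, and 90 and 27 with the averaged clones. Without one array, between 74 and 356 genes were called higher and between 19 and 124 lower. The cause was not tested. Without WT 3, a choice made after seeing the data, related-list genes gave 1 higher and 5 lower calls (0 and 4 with all arrays) and cell type markers 5 higher and 2 lower (3 and 1); without WT 1, chosen likewise, these were 0 and 5, and 1 and 0. The within-array differences moved by less than 1 pooled SD of the groups, which for Prph minus Nefl is mostly the spread in WT; its value ran from -1.31 to -0.50 without one array. No paired analysis was possible because the groups share no replicate numbers. Dim genes such as Gfap, Des and Nes lie where signal over background limits what can be seen.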
